A study of Mus musculus with 15 samples.

Results

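The genes described are those for the proteins of the cytosolic ribosome, taken as the gene symbols made of Rpl or Rps and a number with an optional closing letter (a, x, y or l), together with Rplp0, Rplp1, Rplp2, Rpsa and Fau. Pseudogene entries whose symbol ends in -ps and the Rps6k kinases were left out. The rule matched 90 entries, and 88 of 53700 gene entries had at least 10 counts over all libraries. Of these 88, 46 encode large subunit proteins and 32 small subunit proteins, and these 78 are called canonical below. A further 5 are paralogs (Rpl3l, Rpl7l1, Rpl22l1, Rpl39l and Rps27l) and 5 are gene copies or pseudogenes (Rpl6l, Rpl32l, Rps3a2, Rps3a3 and Rps4l). All of the latter but Rpl32l are listed as pseudogenes in RefSeq. Rpl10l and Rps12l1 stood at 0 counts in every library. Rack1, which also yields a ribosomal protein, falls outside the symbol rule.

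Each ribosome carries a single copy of most of its proteins, and the small subunit reads the messenger RNA while the large subunit joins amino acids. Most of these messenger RNAs begin with a run of pyrimidines (the TOP motif), through which the kinase mTOR adjusts their translation, so that much of their control acts on translation and not on RNA level. Unused ribosomal proteins are degraded, and free Rpl5 and Rpl11 can bind Mdm2, the ubiquitin ligase that holds p53 low.

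The RNA came from whole dorsal skin of male SKH-1 hairless mice, 24 h after topical treatment, and was sequenced in 15 libraries, 3 for each of 5 groups. Control skin received ethanol, the vehicle that all groups share, in 30 µL on a square of dorsal skin. PAO (phenylarsine oxide, an arsenical) was given at 100 µg per mouse, or 25 µg per cm2, and CEES (2-chloroethyl ethyl sulfide, an analog of sulfur mustard) at 2 mg per mouse, or 500 µg per cm2. In the SNX-5422+PAO and SNX-5422+CEES groups the same doses were followed after 15 min by topical SNX-5422, an HSP90 inhibitor, at 20 mg per kg. A group with SNX-5422 and no agent was not used here.

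Libraries held 16838000 to 28887000 counts on genes (rounded to 5 digits), with a median of 20512000. Keratinocyte markers took 1.03 to 1.90% of gene counts in every library, skeletal muscle markers 3.75 to 12.5% and mitochondrial ribosomal RNA 5.72 to 17.7%. Control 1 stood apart from the other control libraries in these genes: 60 of the 78 canonical genes lay below the Control mean in it, with a median log2 difference of -0.20. Library numbers in the column names ran from 1 to 9 for the Control and PAO groups and from 13 to 18 for the CEES groups, so the CEES treatment and anything else that follows those numbers cannot be told apart. The labels do not state that each library is a separate animal, so the p-values reflect the variation among these samples, part of which may be technical.

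The canonical genes spanned a wide range of levels in the skin. In CPM (counts scaled to a common library size) per kilobase of transcript, the lowest mean level was that of Rpl24 at 1.90, the median was 191 and the highest was that of Rps24 at 663. Rps24, a small subunit protein, was followed by Rpl41, the smallest ribosomal protein, at 510.4, the stalk protein Rplp0 at 505, Rps12 at 441 and Rps4x, the X-linked form of Rps4, at 427. At the other end stood Rpl13a at 11.3, Rps10 at 13.0, Rpl29 at 16.7 and Rps15a at 20.4 CPM per kilobase. These low levels are those assigned to the listed gene. Of the 50-base stretches of the Rpl24 transcript 81.7% also occur in another gene, and 78.2% of those of Rps10. At high level, 83.6% of those of Rps12 and 72.2% of those of Rps4x did so too. Over the 78 canonical genes, shared percentage and level had a Spearman correlation of 0.048. The Rps15a transcript used for its length measures 5179 bases. The cause of the low levels was not tested.

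**Figure D1:**
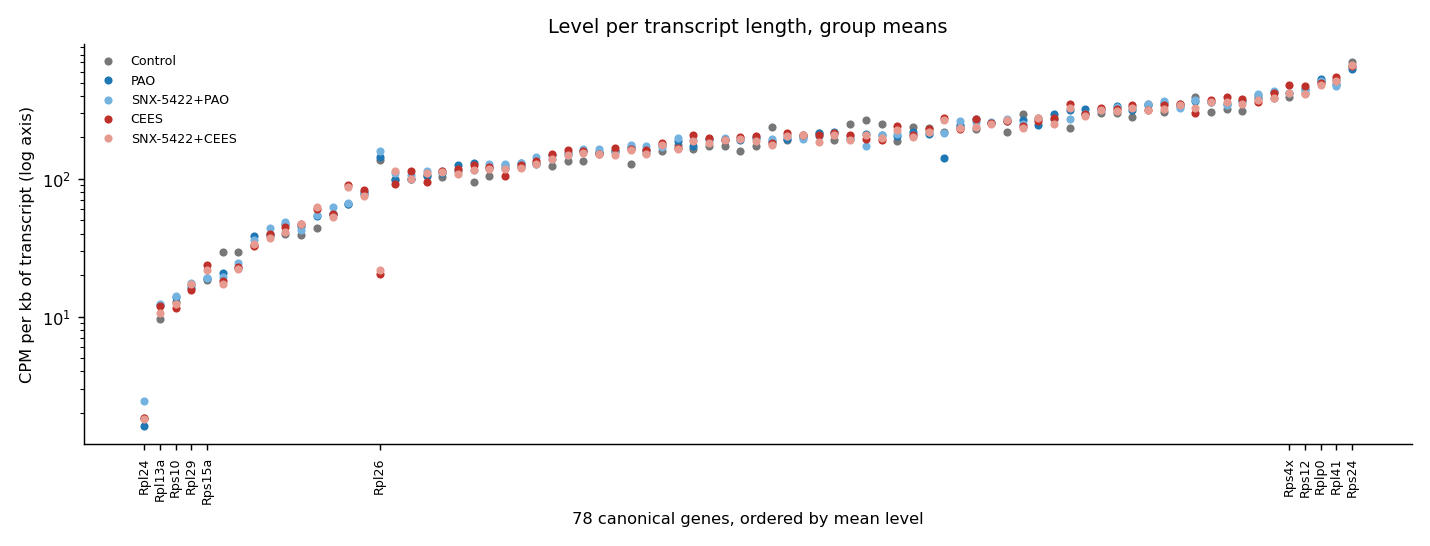
Mean CPM per kilobase of transcript (log axis) of the 78 canonical genes in each of the 5 groups, ordered by their mean over groups, with 1 point per group mean and names for Rpl26 and the 5 genes at each end. Most genes show 5 nearly overlapping points, and Rpl26 has 2 points (CEES and SNX-5422+CEES) far below the other 3.

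The groups differed little for most canonical genes. The ratio of the highest to the lowest group mean had a median of 1.19 and was under 1.2 for 39 of 78 genes and at least 1.5 for 5. The coefficient of variation over the 15 libraries had a median of 10.99%. Within groups, the same measure had a median of 14.9% in Control, 4.83% after PAO, 6.12% with SNX-5422+PAO, 11.2% after CEES and 5.94% with SNX-5422+CEES, so at the median the spread between control libraries was wider than that across all libraries.

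The share of all gene counts held by the 88 genes was 1.39% ± 0.072 in Control, 1.24% ± 0.093 after PAO, 1.15% ± 0.0496 with SNX-5422+PAO, 1.57% ± 0.156 after CEES and 1.40% ± 0.0554 with SNX-5422+CEES (SD, n = 3 each). The SNX-5422+PAO libraries all lay below the Control libraries, and the CEES libraries overlapped them. These shares are given with no test. Mitochondrial ribosomal RNA took 7.44% of gene counts in Control, 13.4% after PAO, 15.6% with SNX-5422+PAO, 7.43% after CEES and 8.58% with SNX-5422+CEES. With that RNA taken out of the total, the shares were 1.501%, 1.44%, 1.36%, 1.69% and 1.53% in the same order. In bulk skin, fewer cells of a type and less RNA per cell cannot be told apart, and the marker lists also shifted: skeletal muscle markers took 9.02, 9.13, 11.3, 4.10 and 7.94% of gene counts in these groups, and fibroblast markers 0.536, 0.704, 0.452, 2.17 and 1.56%. Monocyte and macrophage markers took 0.0431, 0.103, 0.0844, 0.236 and 0.130%. Their part in the shares was not tested.

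**Figure D2:**
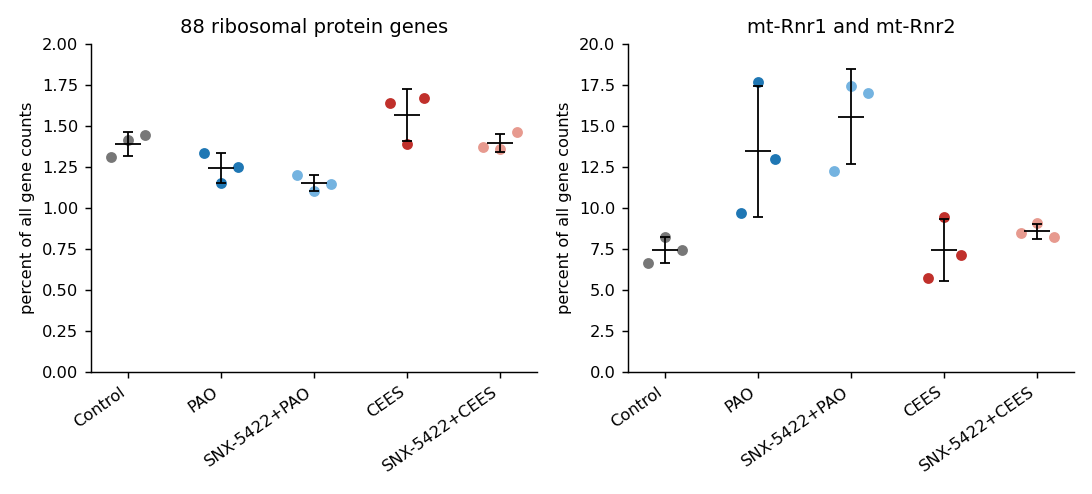
Percent of all gene counts held by the 88 ribosomal protein genes (left) and by the mitochondrial ribosomal RNA genes mt-Rnr1 and mt-Rnr2 (right) in each library, with group mean and SD (n = 3). The ribosomal protein share stays between 1.10 and 1.67% in all 15 libraries, while mitochondrial ribosomal RNA reaches 17.7% in a PAO library.

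After scaling for library composition (TMM), 66 of the 88 genes did not pass the test in any of 8 comparisons. The matching share over all genes was not computed. A gene was called raised or lowered at a Benjamini-Hochberg adjusted p under 0.05 in edgeR's quasi-likelihood test over 22529 genes. After PAO 2 of the 88 were raised and 2 lowered against Control, where 11.9% of all tested genes were raised and 8.58% lowered. After CEES 9 were raised and 11 lowered, where 17.8% of all tested genes were raised and 16.2% lowered. Those counts put 4.55% of the 88 genes past the threshold after PAO, against 20.4% of all genes, and 22.7% after CEES, against 33.9%. Median log2 changes of the 88 were 0.07 after PAO and 0.09 after CEES, beside -0.0040 and -0.04 for all genes. The 95% interval of the change lay within 1.5-fold in both directions for 67 of 88 genes after PAO and for 59 after CEES.

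The counts depended on the scaling. On total counts the median of all genes moved by -0.20 after PAO and by 0.12 after CEES, and the calls became 1 raised and 14 lowered after PAO and 29 raised and 4 lowered after CEES. Of all 22529 tested genes, 1436 were then raised and 4340 lowered after PAO, and 5046 and 2409 after CEES. With mitochondrial ribosomal RNA as a covariate 0 were raised and 0 lowered after PAO. With upper-quartile scaling the calls were 1 raised and 7 lowered after PAO, and 5 and 14 after CEES. Over all tested genes that scaling gave 2183 raised and 2497 lowered after PAO, and 3507 and 4556 after CEES. With the muscle list level as a covariate 32 were raised and 6 lowered after CEES. Shares of all genes in the covariate fits are not given here. Muscle markers took 3.75 to 4.42% of gene counts in the CEES libraries and 6.93% or more in every other library. Mitochondrial ribosomal RNA took 6.63 to 8.23% in Control and 9.69 to 17.7% after PAO. Here and below, covariate and treatment thus cannot be told apart in those fits, and a call lost or gained under them decides nothing. Without Control 1 the CEES calls were 4 raised, and without Control 2 they were 24 raised. Lowered calls after CEES ranged from 6 (without Control 3) to 11. Shares of all genes called in the fits that left out a library are not given here either. These swings thus cannot be told apart from a change in calls over all genes. Markers of other cells shifted in the same comparisons. Of 15 monocyte and macrophage markers 14 were raised after PAO and 15 after CEES, of 17 fibroblast markers 7 and 16, and of 15 tested neutrophil markers 12 after each agent. Pancreas genes, which skin does not normally express, took 0.116 to 0.398% of gene counts in the Control, PAO and SNX-5422+PAO libraries and 0.00198 to 0.0213% in the 6 libraries with CEES, without overlap. Of 23 tested pancreas genes, 0 were called after PAO, and 23 were lowered after CEES (median log2 -6.73) and in SNX-5422+CEES against Control (-4.06). That split follows the library numbers, as does the CEES treatment. Their part in the changes of the ribosomal protein genes was not tested.

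**Figure D3:**
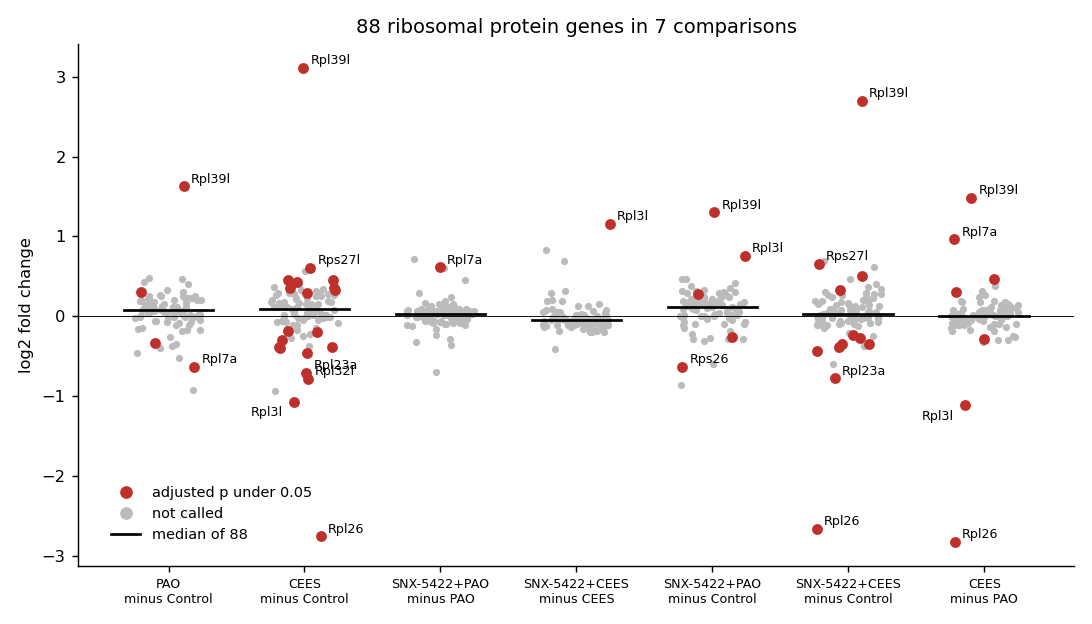
Log2 fold change of each of the 88 genes (points) in 7 comparisons, with the median as a bar and called genes in red (edgeR adjusted p under 0.05). Most genes crowd around 0 in every column, and Rpl39l, Rpl26, Rpl3l and Rpl7a lie farthest out among the called genes.

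The stalk of the large subunit, which recruits the elongation factors, is built from Rplp0, Rplp1 and Rplp2. Rplp0 stood at 636, 728 and 720.4 CPM in Control, 738, 696 and 734 after PAO, 776, 634 and 673 with SNX-5422+PAO, 693, 643 and 672 after CEES, and 639, 644 and 669 with SNX-5422+CEES. All groups overlapped Control, and its log2 change was 0.06 after PAO (95% interval -0.12 to 0.24) and -0.05 after CEES (-0.23 to 0.13). Rplp1 stood at 90.4, 133 and 129 CPM in Control, 179, 131 and 165 after PAO, and 193, 123 and 208 after CEES, with log2 changes of 0.43 (SE 0.24, edgeR adjusted p = 0.226) and 0.57 (SE 0.24, adjusted p = 0.0751). Rplp2 stood at 66.1, 115 and 91.1 CPM in Control, 122, 123 and 131 after PAO, and 124, 96.2 and 147 after CEES. The PAO values of Rplp2 lay above all its Control values, yet its log2 changes of 0.46 (adjusted p = 0.0869) and 0.43 (adjusted p = 0.0820) did not pass the threshold.

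Other members with known roles outside peptide synthesis, as named here, were not called after PAO or CEES. Rps6, the small subunit protein that S6 kinases phosphorylate, stood at 141, 145 and 136 CPM in Control, 141, 130.4 and 148 after PAO, and 139, 123 and 179.9 after CEES. The groups overlapped, with log2 changes of -0.0051 (95% interval -0.24 to 0.23) after PAO and 0.07 (-0.16 to 0.30) after CEES. Fau, whose product is cleaved into a ubiquitin-like protein and the ribosomal protein S30, stood at 127, 134 and 136 CPM in Control, 123, 139 and 133 after PAO, and 123, 119.8 and 140.3 after CEES, again with overlap. Rpl5 and Rpl11, the Mdm2-binding pair, had log2 changes of 0.05 (SE 0.10) and 0.20 (SE 0.13) after PAO and of 0.09 (SE 0.10) and 0.23 (SE 0.13) after CEES, with adjusted p-values of 0.795, 0.309, 0.543 and 0.176. The Rpl11 values after PAO (163, 170 and 164 CPM) all lay above its Control values (112, 162 and 159 CPM). Rpl22, which in mouse represses its paralog Rpl22l1, changed by 0.23 after PAO (SE 0.12, adjusted p = 0.211) and -0.02 after CEES (SE 0.12, adjusted p = 0.910), and Rpl22l1 by 0.02 (SE 0.28) and 0.12 (SE 0.27).

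Several canonical genes changed modestly after CEES. Rps15, a small subunit protein near the decoding site, stood at 232, 222 and 219.6 CPM in Control, 226, 208 and 192 after PAO, 230.3, 208 and 205 with SNX-5422+PAO, 172, 173 and 167 after CEES, and 185, 191 and 184 with SNX-5422+CEES. All CEES values lay below the lowest value of every other group, and Rps15 fell by 0.39 on the log2 scale against Control (SE 0.07, edgeR adjusted p = 0.000595). Rpl34 of the large subunit stood at 22.1, 29.8 and 30.3 CPM in Control, 36.6, 35.6 and 40.5 after CEES, and 34.2, 40.6 and 41.8 with SNX-5422+CEES. Both CEES groups lay above Control, as did every PAO and SNX-5422+PAO library, and those 2 groups overlapped CEES. Neither PAO group was called against Control for this gene. Rpl34 rose by 0.45 after CEES (SE 0.12, adjusted p = 0.00683) and by 0.50 with SNX-5422+CEES against Control (SE 0.12, adjusted p = 0.00557). These calls held when any of the 15 libraries was left out, with adjusted p up to 0.00402 for Rps15 and 0.0349 for Rpl34 after CEES. With the muscle list level as a covariate the Rps15 change after CEES was -0.37 (adjusted p = 0.117).

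Some other canonical calls rested on particular libraries. Rpl39, which lines the exit tunnel for the growing protein, rose by 0.45 after CEES (SE 0.15, adjusted p = 0.0342), and Rps19, whose gene is mutated in human Diamond-Blackfan anaemia, by 0.35 (SE 0.13, adjusted p = 0.0391). Both lost the call without Control 1, CEES 1 or CEES 3, with adjusted p up to 0.157 and 0.175. Rps26, at the mRNA exit channel of the small subunit, fell by 0.46 (SE 0.16, adjusted p = 0.0325) and lost the call without Control 1, PAO 3, CEES 1 or CEES 2, with adjusted p up to 0.214. Rps26 stood at 233, 145 and 171 CPM in Control and at 130.1, 117 and 152 after CEES, so Control 1 held the highest value and the groups overlapped. Without Control 1 its change was -0.25. Rps26-ps1, a pseudogene of Rps26, rose by 1.13 after CEES (SE 0.21, adjusted p = 0.000532), and with the pseudogene entries added the Rps26 change was -0.33 (adjusted p = 0.108). Rpl23a, at the tunnel exit, fell by 0.70 (SE 0.23, adjusted p = 0.0265) and lost the call without Control 1, Control 3, CEES 1 or CEES 2, with adjusted p up to 0.110. Further canonical calls after CEES included rises of 0.35 in Rps15a, 0.34 in Rpl36 and 0.29 in Rps18. Falls were 0.38 in Rpl28, 0.30 in Rps28, 0.20 in Rpl10a and 0.18 in Rpl4. Adjusted p-values of these further calls were 0.00731 to 0.0497, and their CEES fits without single libraries are not given.

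Rpl28 of the large subunit was called lower after both agents, and its PAO call rested on the libraries and settings named here. It stood at 309.7, 221 and 261 CPM in Control, 222, 202 and 206 after PAO, 204, 221 and 223 with SNX-5422+PAO, 209.9, 189 and 209.9 after CEES, and 201, 192 and 195 with SNX-5422+CEES. Control 1 was the highest library, the PAO values overlapped Control, and the CEES values lay below it. The log2 change was -0.33 after PAO (SE 0.10, adjusted p = 0.0254) and -0.38 after CEES (adjusted p = 0.00731). Without Control 1 the PAO change was -0.20, and the call was lost without Control 1, Control 3, PAO 2 or PAO 3, with adjusted p up to 0.145. With mitochondrial ribosomal RNA as a covariate it was -0.18 (adjusted p = 0.475). Both agents were compared with the same Control libraries.

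Rpl26 showed the largest fall among the canonical genes, and a near-identical copy of it moved in the other direction. Rpl26 is a large subunit protein near the tunnel exit that in human cells also binds p53 messenger RNA. The copy, Gm15772 on chromosome 5, matches the Rpl26 coding sequence (chromosome 11) in 436 of 438 bases. The 60-base stretch of coding bases 147 to 206 is shown because it holds 1 of the differences by which a read can be assigned, with that base in capitals. Both sequences come from GENCODE M21 transcripts of GRCm38.
Rpl26: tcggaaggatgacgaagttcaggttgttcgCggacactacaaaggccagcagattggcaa
Gm15772: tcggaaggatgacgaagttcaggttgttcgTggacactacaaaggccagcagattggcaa

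Rpl26 stood at 63.1, 76.7 and 77.1 CPM in Control, 78.5, 72.3 and 77.3 after PAO, 82.3, 80.0 and 89.9 with SNX-5422+PAO, 10.2, 8.35 and 13.7 after CEES, and 11.6, 10.3 and 12.4 with SNX-5422+CEES. The CEES groups thus lay far below every other library, without overlap. The log2 change was -2.75 after CEES (SE 0.14, edgeR adjusted p = 1.75e-08) and -2.66 with SNX-5422+CEES against Control (SE 0.14, adjusted p = 5.22e-08), and the range over the fits that left out a library was -2.96 to -2.60 for the former. Gm15772 stood at 48.7, 51.8 and 56.5 CPM in Control, 57.2, 52.7 and 55.6 after PAO, 59.2, 49.4 and 57.3 with SNX-5422+PAO, 117, 101 and 135 after CEES, and 109, 110.4 and 115 with SNX-5422+CEES. The copy rose by 1.17 after CEES (SE 0.10, adjusted p = 6.06e-07), with every CEES value above every value of the groups without CEES. Gm15772 held 42.1% ± 1.64 of the summed counts in Control, 42.0% ± 0.183 after PAO, 39.6% ± 1.93 with SNX-5422+PAO, 91.7% ± 0.793 after CEES and 90.7% ± 0.663 with SNX-5422+CEES (SD, n = 3). Their sum was 125 ± 11.4, 131 ± 5.56, 139 ± 9.13, 128 ± 20.1 and 123 ± 3.73 CPM in these groups. With all processed copies added to Rpl26, its log2 change after CEES was 0.045 (SE 0.10, adjusted p = 0.770), so the sum did not follow Rpl26. What set the split between the copies was not tested.

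Rpsa, the laminin receptor precursor that is also a small subunit protein, had a similar partner. Rpsa-ps10 on chromosome 3 matches the Rpsa coding sequence (chromosome 9) in 879 of 885 aligned bases, and coding bases 185 to 244 are shown because they hold 2 of these differences, in capitals. The sequences are from the same transcripts.
Rpsa: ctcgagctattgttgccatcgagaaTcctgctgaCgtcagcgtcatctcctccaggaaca
Rpsa-ps10: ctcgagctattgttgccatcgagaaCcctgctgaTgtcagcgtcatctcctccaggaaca

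Rpsa stood at 482, 497 and 483 CPM in Control, 288, 485 and 359 after PAO, 423, 372 and 389 with SNX-5422+PAO, 400.3, 375 and 434 after CEES, and 358, 379 and 381 with SNX-5422+CEES. Only PAO 2 among the treated libraries reached the Control range. Rpsa-ps10 had 27, 30 and 37 counts in Control and 2435, 25 and 1766 after PAO, against 1287, 1184 and 970 with SNX-5422+PAO, 1438, 1527 and 1452 after CEES, and 1544, 1471 and 1549 with SNX-5422+CEES. PAO 2 was thus at the Control level of the copy as well, and all other treated libraries were far above it. The sum of both was 488 ± 8.25 CPM in Control, 453 ± 31.8 after PAO, 464 ± 28.3 with SNX-5422+PAO, 466 ± 31.1 after CEES and 434 ± 12.01 with SNX-5422+CEES (SD, n = 3). The log2 change of Rpsa was -0.37 after PAO (SE 0.13, adjusted p = 0.0593) and -0.27 after CEES (SE 0.13, adjusted p = 0.122). In SNX-5422+CEES it fell by 0.39 against Control (SE 0.13, adjusted p = 0.0446), a call that was lost with the copies added (-0.14, adjusted p = 0.190). It was also lost without any one library of Control or SNX-5422+CEES, and without SNX-5422+PAO 3, CEES 1 or CEES 3, with adjusted p up to 0.0991.

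**Figure D4:**
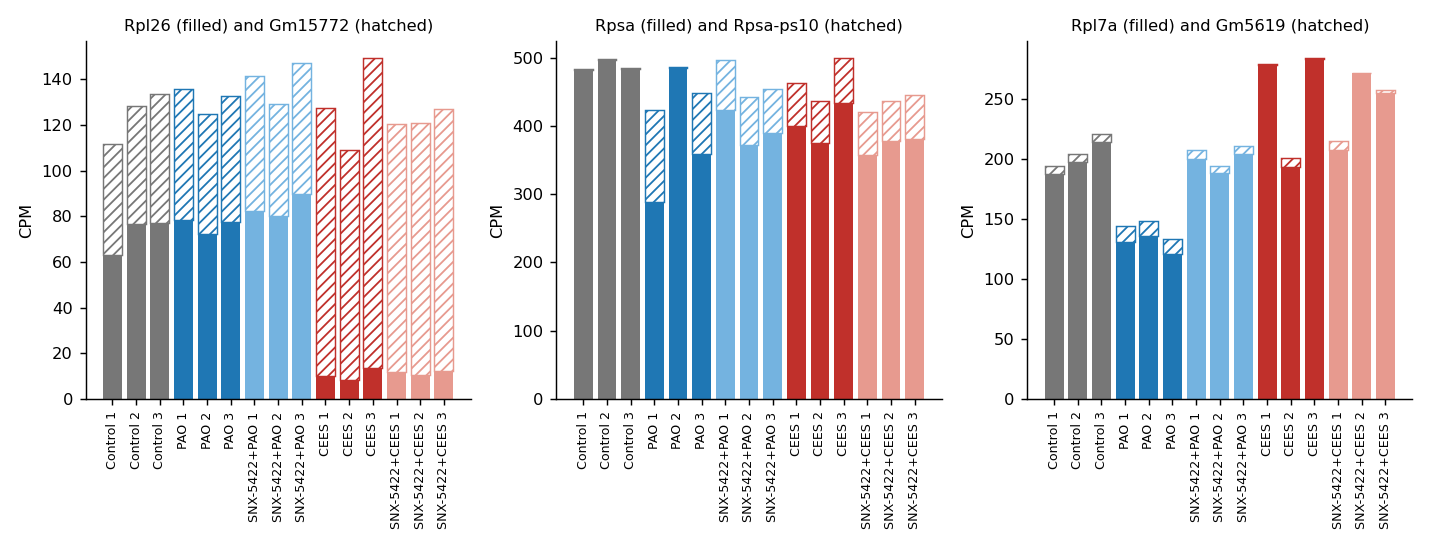
CPM in each of the 15 libraries of Rpl26, Rpsa and Rpl7a (filled) stacked with Gm15772, Rpsa-ps10 and Gm5619 (hatched), each a processed copy of the gene below it. In the 6 libraries with CEES most of the Rpl26 stack is hatched while the summed height stays in the range of the other libraries, and PAO 2 has no visible Rpsa-ps10.

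Over the set as a whole, the processed copies held far fewer reads than the genes, though not for every member. A total of 392 processed copies shared at least 100 stretches of 50 bases with 68 of the members, and together they held 119181 counts, or 2.80% of the members' counts. They held 63.7% of the counts summed over gene and copies for Rpl26, 57.1% for Rps3a2, 50.2% for Rpl29 and 31.0% for Rpl24, the last pair being among the genes of lowest level. The tally left out some pseudogenes with many counts. Rps2-ps10 had 32232 counts, beside 4963 tallied for the copies of Rps2 and 66061 for Rps2 itself. It rose on the log2 scale by 0.65 after PAO and by 0.85 after CEES (edgeR adjusted p = 0.0128 and 0.00101). Rps26-ps1 had 4273 counts, beside 7 tallied for the copies of Rps26. The median canonical gene shared 58.7% of its 50-base stretches with another gene, 47 of 78 shared over 50% and 5 over 90%. Levels of such genes are uncertain to the extent that reads with a single best alignment could fall to either copy.

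Rpl7a, a large subunit protein, was the canonical gene with the largest fall after PAO. It stood at 188, 197 and 214 CPM in Control, 131, 135 and 120.5 after PAO, 200.2, 188 and 204 with SNX-5422+PAO, 279, 194 and 284 after CEES, and 208, 272 and 255 with SNX-5422+CEES. The PAO libraries were the lowest of all 15, and those with SNX-5422 after PAO overlapped the Control range. Rpl7a fell by 0.63 after PAO (SE 0.13, edgeR adjusted p = 0.00233), and this held when any library was left out, with adjusted p up to 0.0154. SNX-5422+PAO exceeded PAO by 0.61 (SE 0.13, adjusted p = 0.00993), and that call was lost without PAO 3 (adjusted p = 0.0597). CEES exceeded PAO by 0.97 (SE 0.13, adjusted p = 0.000100). These comparisons share the PAO libraries.

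The copies of Rpl7a did not have steady levels either. Gm5619 had 121, 141 and 200 counts in Control, 239, 194 and 252 after PAO, 122, 110 and 103 with SNX-5422+PAO, 5, 178 and 5 after CEES, and 185, 2 and 55 with SNX-5422+CEES. The highest CPM of this copy were those of the PAO libraries, where it held 9.05% ± 0.593 of the sum with Rpl7a, against 3.16% ± 0.203 in Control, and libraries within each CEES group differed widely. With the copies added to Rpl7a, its log2 change after PAO was -0.42 (adjusted p = 0.00749) and the difference between SNX-5422+PAO and PAO was 0.42 (adjusted p = 0.0234). After adding mitochondrial ribosomal RNA as a covariate the PAO change of Rpl7a was -0.48 (adjusted p = 0.131).

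The largest rises after CEES among called genes were those of paralogs. Rpl39l, a form of Rpl39 that in mouse is expressed mainly in testis, and Rps27l, a form of Rps27 and a p53 target, are shown beside their partners because the capitals, which mark every differing base, show how far their reads can be told apart. The Rpl39 pair (chromosomes X and 16) differs at 23 of 156 coding bases, and the Rps27 pair (chromosomes 3 and 9) at 61 of 255. The sequences are coding sequences of GENCODE M21 transcripts.
Rpl39: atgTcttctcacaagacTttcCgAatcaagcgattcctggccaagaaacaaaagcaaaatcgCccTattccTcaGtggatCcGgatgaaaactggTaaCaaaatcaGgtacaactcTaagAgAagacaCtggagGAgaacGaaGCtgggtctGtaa
Rpl39l: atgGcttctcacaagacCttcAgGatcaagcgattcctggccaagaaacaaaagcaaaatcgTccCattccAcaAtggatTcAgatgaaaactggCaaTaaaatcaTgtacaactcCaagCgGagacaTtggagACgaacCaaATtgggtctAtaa
Rps27: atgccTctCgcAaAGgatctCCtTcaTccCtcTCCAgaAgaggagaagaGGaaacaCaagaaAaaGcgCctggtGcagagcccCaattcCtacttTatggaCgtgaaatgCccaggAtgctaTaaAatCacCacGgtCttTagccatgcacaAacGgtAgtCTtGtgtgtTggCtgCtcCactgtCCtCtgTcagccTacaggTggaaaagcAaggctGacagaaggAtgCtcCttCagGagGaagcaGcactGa
Rps27l: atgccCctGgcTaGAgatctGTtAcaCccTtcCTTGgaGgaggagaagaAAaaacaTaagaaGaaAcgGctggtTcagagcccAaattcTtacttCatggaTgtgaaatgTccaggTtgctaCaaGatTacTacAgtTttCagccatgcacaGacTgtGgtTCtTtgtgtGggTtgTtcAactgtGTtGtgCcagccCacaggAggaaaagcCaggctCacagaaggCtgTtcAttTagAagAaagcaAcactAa

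Rpl39l had 3, 5 and 7 counts in Control, 15, 11 and 9 after PAO, 10, 9 and 7 with SNX-5422+PAO, 36, 63 and 32 after CEES, and 39, 27 and 37 with SNX-5422+CEES. In CPM these were 0.160, 0.232 and 0.227 in Control, 0.833, 0.705 and 0.455 after PAO, 0.569, 0.534 and 0.472 with SNX-5422+PAO, 1.57, 2.57 and 1.43 after CEES, and 1.61, 1.06 and 1.53 with SNX-5422+CEES. Every treated library lay above every Control library, and every CEES library above every PAO library, at levels far below the 29.8, 47.2 and 44.0 CPM of Rpl39 in Control. Rpl39l rose by 3.11 after CEES (SE 0.38, edgeR adjusted p = 1.39e-05) and by 1.63 after PAO (SE 0.42, adjusted p = 0.0121), the latter lost without PAO 1 (1.41, adjusted p = 0.0682). It was higher after CEES than after PAO by 1.49 (SE 0.34, adjusted p = 0.00586). With the muscle list level as a covariate the CEES change of Rpl39l was 2.37 (adjusted p = 0.1201) and its difference between CEES and PAO was 0.71 (adjusted p = 0.948).

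Rps27l stood at 11.6, 20.9 and 19.0 CPM in Control, 19.7, 20.1 and 20.9 after PAO, 26.6, 21.6 and 23.4 with SNX-5422+PAO, 29.0, 23.9 and 26.1 after CEES, and 24.5, 30.0 and 27.2 with SNX-5422+CEES. The PAO values overlapped Control, and both CEES groups lay above it. The SNX-5422+PAO values also lay above Control and overlapped those of CEES, but were not called against Control. Rps27l rose by 0.61 after CEES (SE 0.16, adjusted p = 0.00831), and by 0.40 without Control 1 (adjusted p up to 0.0389 over all libraries left out). Rps27 itself was not called in any comparison. Rpl7l1, a paralog of Rpl7, stood at 31.3, 37.0 and 39.9 CPM in Control, 45.4, 45.9 and 42.2 after PAO, 41.0, 46.8 and 43.9 with SNX-5422+PAO, 48.5, 48.1 and 49.5 after CEES, and 45.7, 46.3 and 44.0 with SNX-5422+CEES. All treated libraries lay above Control. Rpl7l1 rose by 0.43 after CEES (SE 0.09, adjusted p = 0.00128) and by 0.30 after PAO (SE 0.09, adjusted p = 0.0245), where the call was lost without Control 1, PAO 1 or PAO 2 (adjusted p up to 0.122). The PAO change was 0.10 on total counts (adjusted p = 0.4598), 0.23 with upper-quartile scaling (adjusted p = 0.0823) and 0.21 after adding mitochondrial ribosomal RNA to the model (adjusted p = 0.340). With the muscle list level as a covariate its CEES change was 0.55 (adjusted p = 0.0747).

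Rpl3l, the form of Rpl3 made in striated muscle, varied with the muscle markers of the samples. It stood at 37.7, 81.6 and 51.5 CPM in Control, 53.9, 62.8 and 59.8 after PAO, 110.1, 88.7 and 90.7 with SNX-5422+PAO, 29.4, 25.5 and 26.6 after CEES, and 43.1, 73.6 and 65.3 with SNX-5422+CEES. The CEES libraries were the lowest and the SNX-5422+PAO libraries the highest. Rpl3l fell by 1.07 after CEES (SE 0.22, adjusted p = 0.00144) and was higher in SNX-5422+CEES than in CEES by 1.16 (SE 0.22, adjusted p = 0.00536). Among 24 tested skeletal muscle markers, 17 were lowered after CEES and 0 raised, and 18 were raised and 0 lowered in SNX-5422+CEES against CEES. Per 10000 counts of the muscle list, Rpl3l had 6.52 ± 0.514 counts in Control, 5.92 ± 0.26 after PAO, 7.12 ± 0.387 with SNX-5422+PAO, 7.62 ± 0.274 after CEES and 8.02 ± 1.01 with SNX-5422+CEES (SD, n = 3). With the muscle list level as a covariate the CEES change of Rpl3l was 0.65 (edgeR adjusted p = 0.0538). The SNX-5422+CEES minus CEES difference was then -0.28 (adjusted p = 0.487), so both signs turned and neither value was called.

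**Figure D5:**
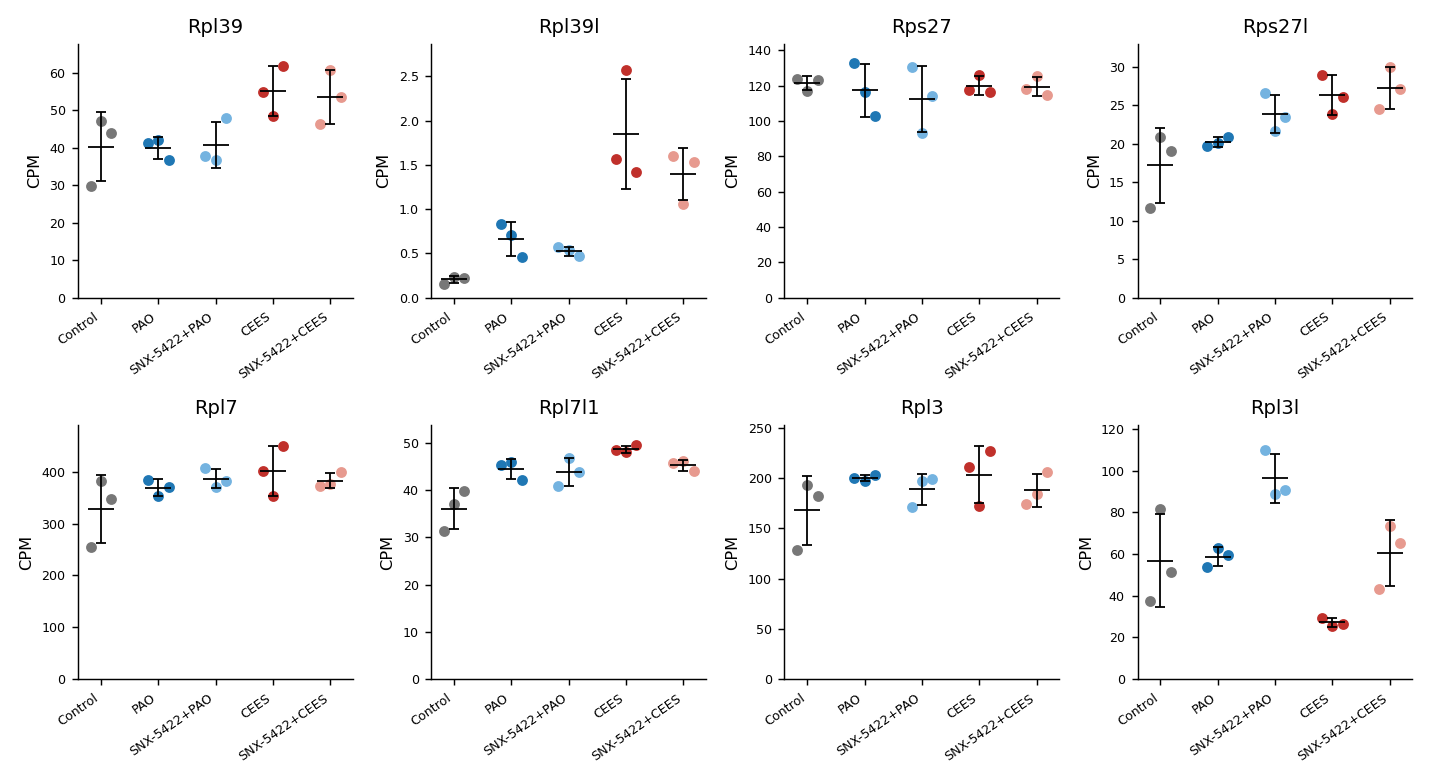
CPM of 4 paralogs and their canonical partners in each library, with group mean and SD (n = 3, axes from 0). Rpl39l and Rpl7l1 lie above Control in every treated library, and Rpl3l is lowest in CEES. Rps27 is level across groups, while Rps27l lies above Control in the CEES groups and in SNX-5422+PAO.

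SNX-5422 after an agent moved few of the 88 genes. Against PAO alone, 1 gene (Rpl7a) was raised and 0 were lowered, where 2.57% of all tested genes were raised and 3.39% lowered, and 5.96% in either direction. Against CEES alone, 1 gene (Rpl3l) was raised and 0 were lowered, where 3.54% were raised and 3.46% lowered, and 7% in either direction. Median log2 differences of the 88 were 0.03 and -0.05, beside -0.01 and 0.01 over all genes, and the 95% interval lay within 1.5-fold for 74 and 77 of them. In the test of whether the SNX-5422 effect differed between the agents, edgeR called 0 of the 88 in either direction (0.55% of all genes were raised, 0.186% lowered and 0.737% either), 2 had an unadjusted p under 0.05, and DESeq2 called 1 lowered.

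The groups that received both compounds were also set against Control and the agents against each other. SNX-5422+PAO had 3 genes raised (Rpl39l, Rpl3l and Rpl7l1) and 2 lowered (Rps26 and Rps28) against Control, where 10.7% of all genes were raised and 8.66% lowered, 19.3% in all. Without Control 1 both counts were 0, and without Control 2 they were 9 and 6. Calls over all genes in fits that left out a library are not given, here or below. The Rps26 call was lost without Control 1 (adjusted p = 0.0674), the Rpl39l call in 14, the Rpl7l1 call in 11 and the Rps28 call in 7 of the 15 fits that left out a library (adjusted p up to 0.193 for Rps28). The Rpl3l difference of 0.76 was lost without Control 1, Control 3, SNX-5422+PAO 1 or SNX-5422+PAO 3 (adjusted p up to 0.103) and was 0.29 with the muscle list level as a covariate (adjusted p = 0.139). SNX-5422+CEES had 4 raised (Rpl39l, Rps27l, Rpl34 and Rpl7l1) and 8 lowered (among them Rpl26, Rpl23a, Rpl28, Rpsa, Rps28, Rps15 and Rpl10a) against Control, where 13.1% were raised and 9.25% lowered, 22.3% in all. Without Control 1 these were 3 and 3, and without Control 2 both were 10. CEES against PAO had 4 raised (Rpl39l, Rpl7a, Rpl39 and Rps15a) and 3 lowered (Rpl26, Rpl3l and Rps15), where 9.86% were raised and 9.02% lowered, 18.9% in all. On total counts 44 were raised, where 7057 of all 22529 tested genes were raised. With the muscle list level as a covariate, which does not overlap between these groups, 18 were raised and 1 lowered. Of the calls under TMM, Rps15 was lost without PAO 1 or PAO 2 (adjusted p up to 0.0970), and Rpl39 and Rps15a in 7 and 5 of the 15 fits. Over the 8 comparisons, 22 of the 88 genes were called at least once, 66 never, and Rpl3l and Rpl7a were called in both directions. The matching share over all tested genes was not computed, so these counts cannot be called low or high.

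The promoters of these genes shared short motifs more often than promoters at large, as a description of the sequences alone. In windows from 250 bases before to 50 after the listed start, held for 58 canonical genes, the letters CCGGAAG (ETS family, both strands) occurred in 41.4% against 9.93% of 27025 genes. CTCTTTC, a pyrimidine-rich start element read on the sense strand, occurred in 24.1% against 4.60%, AAGATGGC (YY1, both strands) in 10.3% against 3.19%, and GGGCGG (Sp1, both strands) in 62.1% against 38.2%. The 60 bases around the listed start (40 before, 20 after) are shown for genes that moved little, fell or rose, from RefSeq on GRCm38.p6, with any of these motifs in capitals. They are Rps6 (chr4:86857348-86857407, minus strand), Rpl28 (chr7:4792925-4792984, plus strand), Rpl26 (chr11:68901526-68901585, plus strand), Rpl39 (chrX:37085203-37085262, minus strand), Rps27l (chr9:66946046-66946105, plus strand) and Rpl39l (chr16:10170188-10170247, plus strand).
Rps6: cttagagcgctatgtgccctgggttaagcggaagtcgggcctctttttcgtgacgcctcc
Rpl28: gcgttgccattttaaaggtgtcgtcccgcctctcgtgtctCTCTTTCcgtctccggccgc
Rpl26: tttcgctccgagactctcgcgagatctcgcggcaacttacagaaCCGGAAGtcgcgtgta
Rpl39: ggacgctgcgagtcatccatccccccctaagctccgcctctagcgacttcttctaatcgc
Rps27l: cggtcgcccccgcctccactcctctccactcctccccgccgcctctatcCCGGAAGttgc
Rpl39l: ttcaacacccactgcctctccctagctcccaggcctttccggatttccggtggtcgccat

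Genes that make or serve ribosomes are described from lists. Of 52 tested ribosome biogenesis factors, 17 were raised and 0 lowered after PAO, and 13 and 0 after CEES, with median log2 changes of 0.22 and 0.14. Over all tested genes 11.9% were raised and 8.58% lowered after PAO, and 17.8% and 16.2% after CEES, and the list counts in this and the next paragraph stand beside those shares with no test. Rrp12, which exports pre-ribosomal particles, stood at 73.9 CPM after PAO against 42.4 in Control (log2 0.80, adjusted p = 7.22e-05), and Heatr1, a processing factor of the small subunit, at 102 CPM after CEES against 67.7 (0.59, adjusted p = 0.000158). The nucleolar helicase Ddx21 rose by 0.49 after each agent, which share the Control libraries. Of 12 tested genes of RNA polymerase I, which makes the ribosomal RNA precursor, 2 were raised after PAO (Polr1a by 0.27 and Rrn3 by 0.28), and after CEES Rrn3 was raised by 0.28 and Taf1a changed by -0.47. Among 12 tested host genes of small nucleolar RNAs, 0 were called after PAO, and Snhg18 (1.29) and Snhg5 (0.35) were raised after CEES.

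Several of the following counts lie near or below the shares of all genes, such as 7 of 38 beside 17.8% after CEES for the translation factors and 10 of 77 beside 11.9% after PAO for mitochondrial ribosomal proteins. Of 38 genes on a mixed list of translation factors and TOP messenger RNAs, 9 were raised and 0 lowered after PAO. Among those raised were the helicase Eif4a1 (0.42) and Eif5 (0.51), and the list median was 0.17. After CEES 7 were raised, such as Eif4a1 (0.47) and Eif2s1 (0.42), and 3 were lowered, such as Naca (-0.42) and Pabpc4 (-0.40), with a median of 0.10. Of 77 tested mitochondrial ribosomal proteins, 10 were raised and 0 lowered after PAO, led by Mrpl11 (0.60) and Mrps23 (0.52), 4 raised and 2 lowered after CEES, and 25 raised and 0 lowered in SNX-5422+PAO against Control, where 10.7% of all genes were raised. Of 22 mTOR and Myc genes, 6 were raised after PAO, including Eif4ebp1, the inhibitor of cap binding that mTOR switches off (log2 1.44, 70.7 against 26.1 CPM), and 5 were raised and 3 lowered after CEES, including the Myc antagonist Mxd1 (1.05). SNX-5422+PAO had less Eif4ebp1 (-0.93) and Myc (-0.50) and more Mycn (1.42) than PAO. The SNX-5422 effect on Eif4ebp1 differed between the agents by 1.10 (SE 0.20, edgeR adjusted p = 0.0189). Of 16 genes listed for ribosome quality control and the response to stalled ribosomes, 7 were raised after PAO, and 2 were raised and 2 lowered after CEES. Those raised after PAO included Trib3 (1.90) and the stalling sensor Map3k20 (0.75). Trib3 and Asns are on the list but are not themselves ribosome quality control factors.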

How the data were processed

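Total RNA depleted of ribosomal RNA was sequenced, and the authors deposited a single table of raw read counts by gene. Per the submitters' processing notes, the tools were Trim Galore 0.6.7 for trimming, STAR 2.7.10a for alignment (GRCm39) and HTSeq 2.0.2 for counting. The sources used here do not give the annotation release or strand setting, so overlapping genes and near-identical copies are uncertain. The members and gene lists were chosen with earlier results of these data known. Groups came from the sample titles and treatments. Symbols were found for 52093 of 53700 identifiers. The 5 summary entries were left out (no feature 35.2 to 46.9%, ambiguous 2.08 to 2.53%, not unique 4.78 to 9.76% of each library).

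The 15 libraries were fitted together with the quasi-likelihood method of edgeR 4.0.16 under R 4.3.3 (a mean per group, TMM factors 0.820 to 1.19, filterByExpr, 10 residual degrees of freedom), with Benjamini-Hochberg adjustment over 22529 genes, all 88 members included. DESeq2 1.42.0 was an alternative. Log2 changes are the first group minus the second, with 95% intervals. CPM use TMM-scaled libraries. Levels per kilobase use GENCODE M21 transcript lengths. Replicates differed by a chi-square per degree of freedom of 6.99 to 50.2, so none was a duplicate. The fit was tested on simulated data. Named members were, in each comparison, the up to 6 largest rises and falls among called members, and members with a well known role or a paralog; genes named from a list were the up to 2 raised and 2 lowered with the smallest p. The other canonical calls after CEES, and the copies, were chosen after their values were seen, and an item withheld from the text is not reported here.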

Additional observations from a re-analysis of the deposited data

How the results depend on the processing

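Leaving out each library in turn gave, for raised and lowered genes, 0 to 8 and 1 to 6 after PAO against Control, 4 to 24 and 6 to 11 after CEES against Control, 0 to 2 raised in SNX-5422+PAO against PAO, 0 to 9 and 0 to 6 with SNX-5422+PAO against Control, 3 to 10 and 3 to 10 with SNX-5422+CEES against Control, 2 to 5 and 2 to 3 after CEES against PAO, and 0 to 1 lowered for the difference between the SNX-5422 effects. Calls over all genes in these fits are not given, so the ranges cannot be read as a property of the ribosomal protein genes alone. Shares of gene counts ranged from 1.36 to 1.43% in Control, 1.1996 to 1.29% after PAO, 1.12 to 1.17% with SNX-5422+PAO, 1.51 to 1.66% after CEES and 1.36 to 1.41% with SNX-5422+CEES. Without muscle and pancreas markers in the total they were 1.53, 1.37, 1.30, 1.63 and 1.52% in Control, PAO, SNX-5422+PAO, CEES and SNX-5422+CEES, and without mitochondrial ribosomal RNA 1.501, 1.44, 1.36, 1.69 and 1.53%.

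Total counts gave 1 raised and 14 lowered after PAO, 29 and 4 after CEES, 1 lowered in SNX-5422+CEES against CEES, 0 and 26 with SNX-5422+PAO and 5 lowered in SNX-5422+CEES against Control, and 44 raised in CEES against PAO. They turned the sign of Rpl7l1 in SNX-5422+PAO against Control (-0.053) and of Rps15 in CEES against PAO (0.029), and moved the median of all genes by -0.13 with SNX-5422+PAO against PAO, -0.11 with SNX-5422+CEES against CEES, -0.34 with SNX-5422+PAO against Control and 0.32 after CEES against PAO. Of all 22529 tested genes, total counts gave 6848 lowered in SNX-5422+PAO against Control and 7057 raised in CEES against PAO. TMM factors computed without the members gave 1 raised in SNX-5422+PAO against Control. Upper-quartile scaling gave 1 and 7 after PAO, 5 raised after CEES, and 1 and 5 with SNX-5422+PAO against Control. No filter gave 4 and 5 after PAO, 17 raised after CEES, 2 raised in SNX-5422+PAO against PAO, 4 lowered in SNX-5422+PAO against Control and 1 lowered for the difference between the SNX-5422 effects. The DESeq2 Wald test gave 2 raised in SNX-5422+PAO against PAO and 1 lowered for that difference. Calls over all genes are not given for the fits without a filter or with DESeq2. Nor are they given for the covariate, compared-group and replicate-block fits below.

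Mitochondrial ribosomal RNA as a covariate gave 0 and 0 after PAO, 0 and 0 with SNX-5422+PAO against Control and 1 raised in CEES against PAO. The muscle list as a covariate gave 5 raised after PAO, 32 and 6 after CEES, 0 and 7 with SNX-5422+CEES against CEES, 0 and 0 with SNX-5422+PAO and 22 raised in SNX-5422+CEES against Control, 18 and 1 after CEES against PAO and 1 lowered for the difference between the SNX-5422 effects; it turned Rpl3l to 0.65 after CEES, -0.28 with SNX-5422+CEES against CEES and 0.60 after CEES against PAO. None of the turned Rpl3l values was called. Mitochondrial ribosomal RNA did not overlap between PAO and Control, nor the muscle list between CEES and any other group. Such fits cannot tell covariate and treatment apart. Fitting only the groups compared gave 0 and 1 after PAO, 5 raised after CEES, 2 raised in SNX-5422+PAO against PAO and 0 raised in SNX-5422+PAO against Control. Counting only canonical members, an alternative chosen after seeing the data, gave 0 raised after PAO, in SNX-5422+CEES against CEES and in SNX-5422+PAO against Control, and 1 with SNX-5422+CEES against Control. Adding processed copies, also chosen after seeing the data, turned Rpl26 after CEES to 0.045. The causes were not tested.

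Replicate numbers did not pair the samples: of 18 correlations between same-numbered libraries, from -0.14 to 0.11, 1 was over 0.1. A replicate block over the groups with distinct numbers gave 1 raised in SNX-5422+PAO against Control and 2 raised in CEES against PAO, where the libraries share only a number. No paired analysis was possible for SNX-5422+CEES because all its titles carry number 1. Genes with few counts, such as Rpl39l, are limited by depth.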
